A study of Rattus norvegicus with 24 samples.

Results

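The genes described here encode the secreted Wnt proteins, the receptors and co-receptors that read them, the R-spondins that raise the number of those receptors, and the secreted proteins that hold Wnts back, together with Axin2, a feedback gene of the pathway. They were chosen by symbol alone, as the Wnt, Fzd, Sfrp, Dkk and Rspo genes with a number in their names plus Lgr4, Lgr5, Lgr6, Axin2, Wif1, Lrp5 and Lrp6, leaving out Wnt4. This gave 44 of the 21425 genes in the table: 18 ligands, 4 R-spondins, 7 frizzled receptors, 2 co-receptors, 3 R-spondin receptors, 9 secreted antagonists and Axin2. Fzd1, Fzd4, Fzd8 and Axin1 were not analysed here.

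Wnt proteins are lipid-modified signals that act over short distances. In the beta-catenin branch, a Wnt joins a frizzled receptor to the co-receptor Lrp5 or Lrp6, beta-catenin escapes degradation, and it switches on targets with TCF and LEF factors, among them Axin2, which then dampens the signal. R-spondins bound to Lgr receptors keep frizzled receptors from being removed, Dkk proteins such as Dkk1 block Lrp5 and Lrp6, and Sfrp proteins and Wif1 bind the Wnts themselves. In the gonad this branch, with Rspo1, is best known for its part in ovary formation, and forced activation of beta-catenin in the early testis disturbs the testis cords.

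The stretch around the gene start is shown for Axin2, the target used to follow the beta-catenin branch, and for 3 members with large differences in the data below, the receptor Fzd5, the R-spondin receptor Lgr4 and the antagonist Sfrp5. Each runs 5′ to 3′ on the gene's strand, from 250 bases before to 50 bases after the gene start, and comes from RefSeq on the rat build GRCr8, whereas the reads were aligned to mRatBN7.2. Of the 44 members, 28 had such an entry. Capitals mark 1 TCF/LEF match (CTTTGAT, or ATCAAAG on the other strand) in Axin2 and 8 GC boxes (GGGCGG, or CCGCCC) in Fzd5, the last pair of which overlap.
Axin2, chr10:94398535-94398834, plus strand: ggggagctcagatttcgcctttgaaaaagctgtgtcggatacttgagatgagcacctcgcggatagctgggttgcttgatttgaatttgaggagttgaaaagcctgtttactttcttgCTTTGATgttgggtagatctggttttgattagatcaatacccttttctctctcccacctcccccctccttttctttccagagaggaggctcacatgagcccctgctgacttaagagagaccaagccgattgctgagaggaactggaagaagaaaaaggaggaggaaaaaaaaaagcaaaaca
Fzd5, chr9:73613990-73614289, minus strand: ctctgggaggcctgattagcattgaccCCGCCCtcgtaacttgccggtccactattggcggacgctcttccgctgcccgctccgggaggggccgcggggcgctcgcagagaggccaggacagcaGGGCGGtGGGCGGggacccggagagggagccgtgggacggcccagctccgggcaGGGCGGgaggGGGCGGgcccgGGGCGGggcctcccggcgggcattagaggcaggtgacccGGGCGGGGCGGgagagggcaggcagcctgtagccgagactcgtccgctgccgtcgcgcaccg
Lgr4, chr3:116901718-116902017, plus strand: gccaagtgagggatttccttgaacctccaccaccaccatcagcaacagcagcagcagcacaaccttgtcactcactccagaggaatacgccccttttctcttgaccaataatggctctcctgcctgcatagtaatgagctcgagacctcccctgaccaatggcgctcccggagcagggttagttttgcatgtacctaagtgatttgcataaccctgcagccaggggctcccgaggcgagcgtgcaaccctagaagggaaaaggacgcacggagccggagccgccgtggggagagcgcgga
Sfrp5, chr1:250960463-250960762, minus strand: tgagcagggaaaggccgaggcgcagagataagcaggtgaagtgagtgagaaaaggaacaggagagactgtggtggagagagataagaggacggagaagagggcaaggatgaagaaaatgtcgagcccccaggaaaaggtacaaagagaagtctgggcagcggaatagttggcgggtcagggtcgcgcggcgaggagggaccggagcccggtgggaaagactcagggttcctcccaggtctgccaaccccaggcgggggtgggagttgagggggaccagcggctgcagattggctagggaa

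The TCF/LEF letters lay 132 bases before the gene start of Axin2, and Axin2 was the 1 member of 28 that held them, against 3.63% of 33469 promoters of the same length. The GC box was present in 14 of the 28 member promoters and in 33.1% of all. The cAMP response element TGACGTCA, which reads the same on both strands, was present in 0 of 28 and in 1.83% of all. A match only describes the letters in this window.

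The libraries came from an in vitro model of the newborn testis, for which all testis cells of wild-type Sprague Dawley rats at postnatal day 5 were grown in Matrigel, a basement membrane gel, without serum and without sorting of cell types. In the baseline experiment, untreated cells, all from 1 litter, were taken straight after isolation (the fresh isolate, labelled tissue) and after 3, 5 and 7 days in culture, with 3 libraries per group that were technical replicates, so that p-values there measure technical spread only. In the induction experiment, day 10 cultures of 3 litters received 50 mIU/mL luteinizing hormone (LH) and 20 mIU/mL follicle-stimulating hormone (FSH) in fresh medium and were sampled at 0 h (before the hormones), 2, 12 and 48 h, where each litter gave 1 library at each time, made from 3 combined cultures. Untreated cultures at 2, 12 and 48 h, and a further early time point named in the labels, were not analysed here, so hormone, fresh medium and further time in culture cannot be told apart.

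Depth over the 24 libraries was 17.3 to 30.4 M reads for the baseline and 15.8 to 28.3 M reads for the induction set, and values are CPM, a gene's read count scaled to a fixed library total. A level of 0 allows up to 3 reads, which is 0.0987 to 0.174 CPM in the baseline and 0.106 to 0.190 CPM in the induction libraries, for counting error only. Summed levels of marker genes of peritubular myoid cells, the contractile cells around the cords, were 1427 to 1592 CPM in the isolate and 3124 to 4960 CPM in culture, and 7 of 8 of them rose on days 3, 5 and 7. Mesothelial markers, of the cells that cover the testis, summed to 0.789 to 1.61 and 67.5 to 168 CPM, with both tested of 4 rising, and Sertoli cell markers to 2874 to 2957 and 3876 to 5470 CPM, with 7, 6 and 5 of 10 rising and 1 falling on days 3, 5 and 7. Germ cell markers summed to 264 to 288 and 42.8 to 70.2 CPM, with 7 of 8 falling, and macrophage markers to 27.7 to 37.6 and 6.71 to 20.0 CPM, with 1 of 5 tested rising on each day and 1, 1 and 2 falling. Endothelial markers summed to 100.4 to 115 and 105 to 169 CPM, with 1 of 5 rising and 3 falling, and Leydig cell markers to 86.4 to 90.7 and 60.2 to 102 CPM, with 2 of 6 rising and 3 falling. Of single markers, the mesothelial marker Upk3b was at 0 throughout day 5, the macrophage marker Cd163 on all 3 culture days and the endothelial marker Emcn on day 7. All other markers in the table had reads in at least 1 library of each of these groups. The part of these marker genes in the differences below was not tested, and in bulk libraries fewer cells of a type and less RNA per cell cannot be told apart.

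Genes were tested with limma where at least 3 libraries of an experiment reached 1 CPM, on log2(CPM + 1), and called at an adjusted p under 0.05 over all genes tested. Fold changes on this scale understate the change of genes with low values. The filter kept 29 of the 44 members among the baseline libraries, 26 among the induction libraries and 30 in at least 1 experiment. Levels are not compared between genes, since CPM does not correct for transcript length. Group means are given ± SD and log2 fold changes ± SE, with n = 3 libraries per group throughout. The share of all genes whose groups did not overlap was not counted, so a lack of overlap alone says little about a member.

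Against the fresh isolate, 13 of the 29 tested members rose and 5 fell at day 3, 13 rose and 6 fell at day 5, and 12 rose and 4 fell at day 7. Of all 13055 genes tested, 55.9% were called at day 3 (29.1% rose, 26.8% fell), 59.9% at day 5 (29.6% and 30.3%) and 60% at day 7 (28.5% and 31.4%), so a call alone says little about a member. Members that changed at least 2-fold on the fitted scale numbered 9 up and 3 down at day 3, where 9.81% of all genes rose and 8.06% fell by that much. At days 5 and 7 they numbered 10 up and 2 down, beside 10.1% and 10.4% of all genes at day 5 and 10.8% and 10.9% at day 7. The median log2 fold change of the tested members was 0.32, 0.40 and 0.42 on days 3, 5 and 7, and that of all genes was 0.02, -0.03 and -0.05. Among these calls, Rspo4 and Wnt3, which fell on all 3 days, and Wnt7b, which rose on days 3 and 5, passed the filter only through the groups where they were high, so their differences were partly built in. Rspo4 is 1 of the falls of at least 2-fold on each day. These 3 comparisons share the isolate libraries. Without the third isolate library 3 members fell at day 3, 3 at day 5 and 2 at day 7. Without the first isolate library 3 fell at day 5 and 2 at day 7, and without the third day 5 library 7 fell at day 7. Of all genes 2684, 3120 and 3305 fell on days 3, 5 and 7 without the third isolate library. Without the first isolate library 3157 fell at day 5 and 3263 at day 7, and without the third day 5 library 4462 at day 7. Rspo4 was not tested once any 1 isolate library was left out, so 1 fewer fall in each of those runs is not a lost call.

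**Figure D1:**
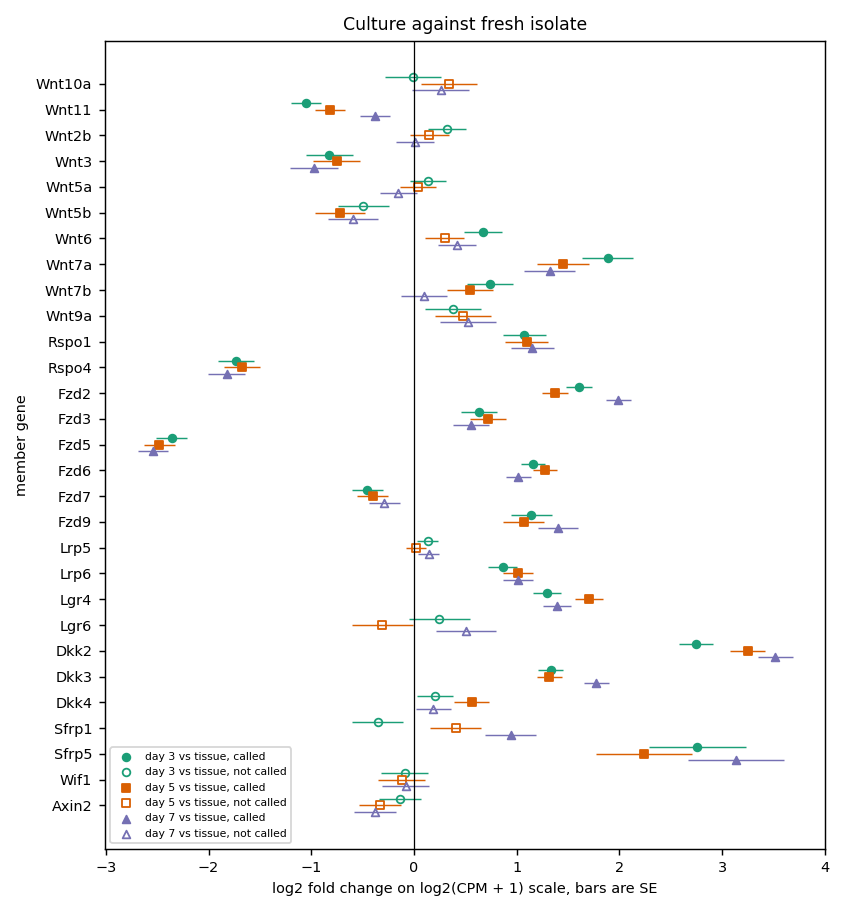
Log2 fold change of the 29 tested members between culture and fresh isolate (horizontal axis, log2(CPM + 1) scale; bars are SE), with 1 row per gene and symbols for days 3, 5 and 7; filled symbols were called. Dkk2 and Sfrp5 lie farthest to the right, at 2.24 to 3.52, and Fzd5 farthest to the left, at -2.36 to -2.54.

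Among the secreted antagonists, Dkk2, Dkk3 and Sfrp5 were higher on every culture day, Sfrp1 only passed on day 7, and none of the 6 that were tested fell. Dkk2, grouped here with the antagonists by its family, had 0.789, 0.963 and 0.658 CPM in the 3 isolate libraries, 9.09, 12.9 and 11.6 CPM at day 3, 13.7, 17.99 and 16.9 CPM at day 5, and 22.3, 19.1 and 17.7 CPM at day 7. All 9 culture libraries lay above all isolate libraries, and the day 7 libraries above those of day 3. Dkk2 rose by 2.75 ± 0.17, 3.25 ± 0.17 and 3.52 ± 0.17 on days 3, 5 and 7 (limma adjusted p = 2.66e-08, 5.49e-09 and 2.58e-09), and its mean CPM at day 7 was 24.5 times that of the isolate. Between day 3 and day 7 Dkk2 rose by 0.77 ± 0.17 (limma adjusted p = 0.02002), a call lost without the first day 3 library (0.112), the first day 7 library (0.0855) or the third day 7 library (0.05003).

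Dkk3, the member of the family that is not thought to bind the co-receptors, had 42.4, 39.1 and 47.8 CPM in the isolate, 103, 103 and 124 CPM at day 3, 102, 107 and 118 CPM at day 5, and 149, 130.1 and 172 CPM at day 7. Again no culture library overlapped the isolate. It rose by 1.33 ± 0.12, 1.32 ± 0.12 and 1.77 ± 0.12 (limma adjusted p = 9.88e-07, 9.41e-07 and 5.88e-08). From day 3 to day 7 the Dkk3 difference of 0.44 ± 0.12 did not pass (limma adjusted p = 0.0610) but passed with edgeR (0.0376), DESeq2 (0.00491), TMM rescaling (0.0380) or the replicate number as a block (0.0180). It also passed without the third day 3 (0.0391), the third day 5 (0.0404) or the second day 7 library (0.0372).

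Sfrp5, a soluble protein with a frizzled-like domain, had 0.263, 0.0917 and 0.362 CPM in the isolate, which is 19 reads in all. It had 3.62, 8.62 and 12.1 CPM at day 3, 5.45, 2.30 and 8.31 CPM at day 5, and 4.93, 9.15 and 20.1 CPM at day 7. Its culture libraries spread widely but none came near the isolate. The log2 fold changes were 2.76 ± 0.47, 2.24 ± 0.47 and 3.13 ± 0.47 (limma adjusted p = 0.000241, 0.00109 and 6.95e-05). Its relative Sfrp1 had 23.8, 19.4 and 23.5 CPM in the isolate, 16.2, 21.3 and 14.4 CPM at day 3, 24.7, 21.8 and 47.9 CPM at day 5, and 41.7, 35.7 and 54.8 CPM at day 7. Only the day 7 libraries all lay above the isolate. Sfrp1 was not called on day 3 (-0.35 ± 0.25, limma adjusted p = 0.247) or day 5 (0.40 ± 0.25, 0.180) and rose at day 7 (0.94 ± 0.25, 0.00548). From day 3 to day 7 it rose by 1.30 ± 0.25 (limma adjusted p = 0.0115), a call lost without the first day 3 (0.0565) or the third day 7 library (0.0629).

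**Figure D2:**
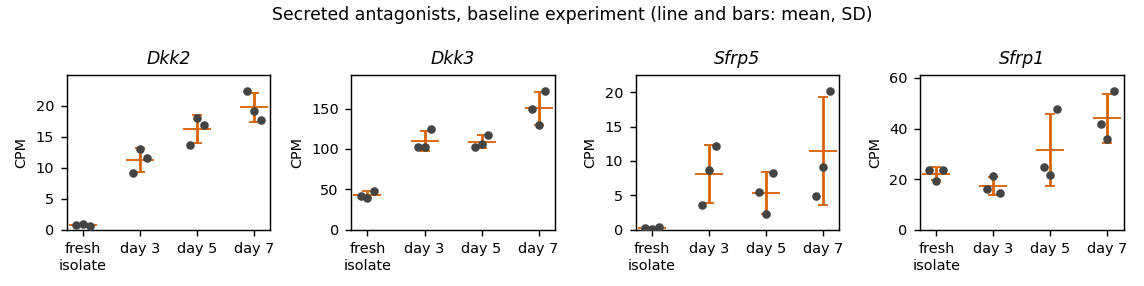
CPM of Dkk2, Dkk3, Sfrp5 and Sfrp1 (vertical axes, from 0) in each baseline library (points), with the mean (horizontal line) and SD (bars) of the 3 libraries of the fresh isolate and of days 3, 5 and 7. For Dkk2, Dkk3 and Sfrp5 every culture point lies above the isolate, and for Sfrp1 the day 7 points do.

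Among the other antagonists, Wif1, which binds Wnts directly, had means of 2.73 ± 0.290 CPM in the isolate and 2.51 to 2.58 CPM in culture and passed in no baseline comparison (smallest limma adjusted p = 0.669 of the 4). Dkk4, a relative of Dkk1, had 9.39 ± 1.116 CPM in the isolate and 14.5 ± 3.30 CPM at day 5, where it rose by 0.56 ± 0.17 (limma adjusted p = 0.0120), a call lost without the third isolate library (0.0567). In the induction libraries Dkk4 had a mean of 0.108 CPM against 11.4 CPM in the baseline, and Wnt9a 5.33 against 0.844 CPM, so both are among 377 genes whose mean exceeded 5 CPM in only 1 experiment while the other mean was below 1 CPM, and their counting is uncertain. Sfrp4 and Sfrp2 did not pass the filter in the baseline libraries, with at most 0.368 and 1.33 CPM in any of them. Dkk1, the founding member of its family, had 0 reads in all 24 libraries.

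Of the 6 frizzled receptors tested, Fzd2, Fzd3, Fzd6 and Fzd9 rose on every culture day, while Fzd5 fell. Fzd5 had 38.5, 39.3 and 37.1 CPM in the isolate, 7.02, 7.07 and 5.92 CPM at day 3, 5.91, 7.26 and 5.13 CPM at day 5, and 6.14, 5.03 and 6.14 CPM at day 7. Isolate and culture were far apart, and the culture days overlapped each other. The isolate mean was 5.74, 6.28 and 6.64 times that of days 3, 5 and 7, and the fitted log2 differences were -2.36 ± 0.15, -2.48 ± 0.15 and -2.54 ± 0.15 (limma adjusted p = 3.45e-08, 1.96e-08 and 1.36e-08). These libraries do not keep strand, and on GRCr8 Fzd5 overlaps the gene LOC134480379. Of the other members tested, Sfrp4 overlaps Nme8, Wnt5b overlaps Fbxl14 and a long non-coding RNA, Wnt11, Wnt7b and Wif1 each overlap a long non-coding RNA, and Fzd3 and Lrp5 each overlap a pseudogene, so their counts are uncertain in the same way.

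Fzd2, a receptor often paired with Wnt5a, had 22.2, 21.6 and 23.9 CPM in the isolate, 63.3, 68.2 and 81.7 CPM at day 3, 63.8, 63.3 and 53.7 CPM at day 5, and 79.4, 99.4 and 100.8 CPM at day 7. Every culture library was above the isolate. The log2 fold changes were 1.61 ± 0.13, 1.37 ± 0.13 and 1.99 ± 0.13 (limma adjusted p = 2.45e-07, 8.82e-07 and 2.78e-08). Fzd6, known from planar polarity in skin and hair, had 33.6, 34.0 and 34.7 CPM in the isolate, 80.4, 81.7 and 70.7 CPM at day 3, 78.4, 73.0 and 104 CPM at day 5, and 73.5, 68.5 and 68.3 CPM at day 7. The cultures overlapped each other but not the isolate. It rose by 1.16 ± 0.12, 1.28 ± 0.12 and 1.02 ± 0.12 (limma adjusted p = 3.30e-06, 1.21e-06 and 8.33e-06).

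Fzd9 had 5.92, 5.64 and 7.53 CPM in the isolate, 13.4, 14.04 and 18.4 CPM at day 3, 17.3, 16.5 and 10.3 CPM at day 5, and 20.1, 16.1 and 19.2 CPM at day 7. Its lowest culture value, in the third day 5 library, still lay above the isolate. The increases were 1.14 ± 0.20, 1.07 ± 0.20 and 1.40 ± 0.20 (limma adjusted p = 0.000272, 0.000419 and 4.02e-05). Fzd3, which acts with Fzd6 in planar polarity and guides axons, changed less, by 0.63 ± 0.18, 0.72 ± 0.18 and 0.55 ± 0.18 (limma adjusted p = 0.00767, 0.00309 and 0.0148). Its day 7 call was lost without the first isolate (0.0538) or the second day 7 library (0.0565).

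Fzd7, a receptor known from stem and progenitor cells, fell slightly, from 20.8 ± 1.62 CPM in the isolate to 14.9 ± 0.447 CPM at day 3 (-0.46 ± 0.15, limma adjusted p = 0.0191) and 15.7 ± 3.37 CPM at day 5 (-0.40 ± 0.15, 0.0323), and did not pass at day 7 (-0.29 ± 0.15, 0.112). The Fzd7 call at day 3 was lost without the third isolate (0.0761) or second day 3 library (0.0539). At day 5 it was lost without any 1 of the isolate libraries (0.0503 to 0.113) or the third day 5 library (0.123). At day 7 Fzd7 passed without the third day 5 library (0.0306). Fzd10 stayed below the filter, at 0.734 CPM or less.

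Of the co-receptors, Lrp6 rose in culture and Lrp5 did not pass. Lrp6 had 72.7, 65.3 and 63.8 CPM in the isolate, 139, 145 and 92.7 CPM at day 3, 143, 133 and 133 CPM at day 5, and 126, 152 and 132 CPM at day 7. The third day 3 library was the lowest of the cultures and still above the isolate. Lrp6 rose by 0.86 ± 0.14, 1.01 ± 0.14 and 1.01 ± 0.14 (limma adjusted p = 0.000196, 4.62e-05 and 4.32e-05). Lrp5, the closest relative of Lrp6, had 129.7 ± 2.61 CPM in the isolate and 142 ± 2.37, 133 ± 20.0 and 143 ± 7.57 CPM on days 3, 5 and 7, with differences of 0.13 ± 0.10, 0.02 ± 0.10 and 0.14 ± 0.10 (limma adjusted p = 0.272, 0.868 and 0.238).

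On the R-spondin side, the receptor Lgr4 and the ligand Rspo1 rose, and the ligand Rspo4 fell. Lgr4 had 82.3, 86.7 and 78.3 CPM in the isolate, 221, 228 and 166 CPM at day 3, 262, 235 and 324 CPM at day 5, and 199, 229 and 227 CPM at day 7. No culture library came down to the isolate. Its log2 fold changes were 1.29 ± 0.14, 1.71 ± 0.14 and 1.39 ± 0.14 (limma adjusted p = 3.58e-06, 2.57e-07 and 1.43e-06). Lgr6, a close relative, had means of 0.780 to 1.94 CPM in the baseline groups and passed in none of the 4 comparisons (smallest limma adjusted p = 0.154). Lgr5, the intestinal stem cell marker, stayed at 0.368 CPM or less.

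Rspo1, the R-spondin of ovary formation, had 1.36, 1.15 and 1.25 CPM in the isolate and 2.76 to 5.24 CPM in the 9 culture libraries, all of them higher. It rose by 1.08 ± 0.21, 1.10 ± 0.21 and 1.15 ± 0.21 (limma adjusted p = 0.000645, 0.000499 and 0.000328). Rspo4, known for its need in nail growth, had 3.29, 2.89 and 3.09 CPM in the isolate and 0.0434 to 0.464 CPM in culture, close to the limit of a few reads. The log2 differences were -1.74 ± 0.18, -1.67 ± 0.18 and -1.83 ± 0.18 (limma adjusted p = 2.57e-06, 3.25e-06 and 1.27e-06). It passed the filter only through its isolate libraries, so a difference was built in. Rspo2 and Rspo3 stayed below the filter, at 1.15 and 0.482 CPM or less.

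**Figure D3:**
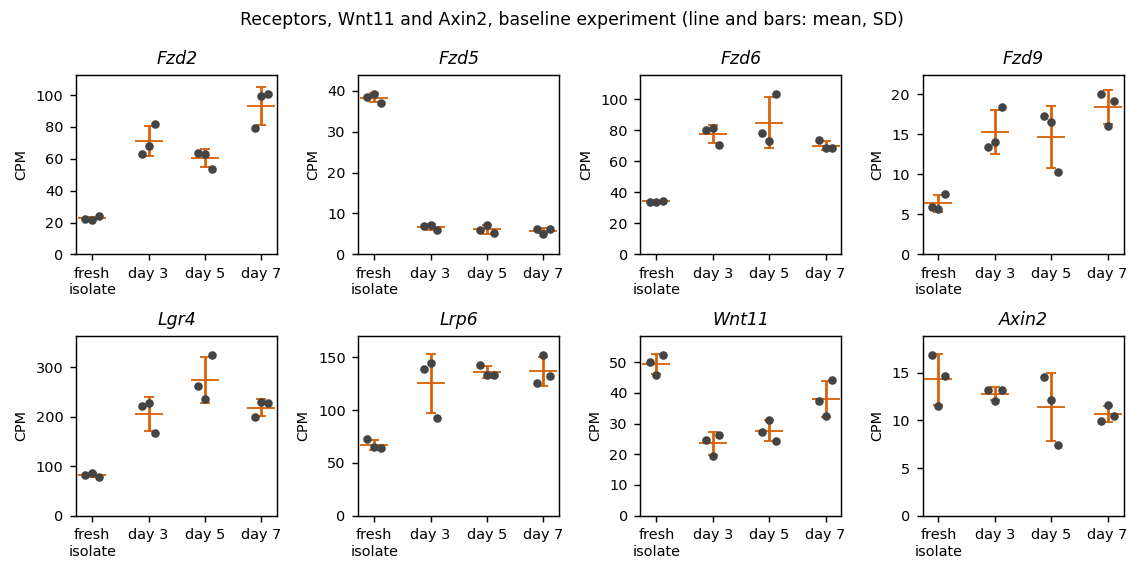
CPM (vertical axes, from 0) of the receptors Fzd2, Fzd5, Fzd6, Fzd9 and Lgr4, the co-receptor Lrp6, the ligand Wnt11 and the feedback gene Axin2 in each baseline library (points), with mean (line) and SD (bars) of 3 libraries. Fzd5 drops from 37.1 to 39.3 CPM in the isolate to 7.26 CPM or less in culture, the other receptors rise, and Axin2 overlaps between isolate and each culture day.

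Of the 10 ligands tested, Wnt7a rose on all 3 days, Wnt11 and Wnt3 fell on all 3, and 3 more passed on some days. Wnt11, which acts mainly without beta-catenin, had 50.0, 45.9 and 52.3 CPM in the isolate, 24.8, 19.4 and 26.4 CPM at day 3, 27.3, 31.3 and 24.4 CPM at day 5, and 37.2, 32.4 and 44.2 CPM at day 7. All culture libraries lay below the isolate, and day 7 lay above day 3. Wnt11 fell at day 3 (-1.05 ± 0.15, limma adjusted p = 4.58e-05) and day 5 (-0.82 ± 0.15, 0.000320). The day 7 fall of -0.38 ± 0.15 (limma adjusted p = 0.0372) was lost with TMM rescaling (0.0774), edgeR (0.0568) and DESeq2 (0.05001), and without the first (0.0902) or the third isolate (0.115) or the first (0.0793) or second day 7 library (0.152). From day 3 to day 7 Wnt11 rose by 0.67 ± 0.15 (limma adjusted p = 0.0211), a call lost without the first (0.0642) or second day 3 (0.0895) or the first (0.0637) or the third day 7 library (0.113).

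Wnt7a, a ligand of epithelia and the reproductive tract, had 0.219, 0.183 and 0.592 CPM in the isolate, which is 27 reads in all. It had 4.83, 4.02 and 2.96 CPM at day 3, 2.202, 4.03 and 1.90 CPM at day 5, and 3.33, 1.73 and 2.03 CPM at day 7, all above the isolate. The increases were 1.89 ± 0.25, 1.45 ± 0.25 and 1.32 ± 0.25 (limma adjusted p = 2.92e-05, 0.000238 and 0.000476). Its relative Wnt7b rose from 0.308 ± 0.127 CPM to 1.25 ± 0.669 CPM at day 3 (0.74 ± 0.22, limma adjusted p = 0.0119) and 0.909 ± 0.188 CPM at day 5 (0.55 ± 0.22, 0.0487) and did not pass at day 7 (0.10 ± 0.22, 0.718). It passed the filter only through its day 3 and day 5 libraries, so these rises were partly built in. Wnt7b was lost at day 3 without the first isolate library (0.0595). At day 5 it was lost without any 1 of the isolate or day 7 libraries or the second or the third day 5 library (0.0507 to 0.165), and with the replicate number as a block (0.0640).

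Wnt3, a ligand of the beta-catenin branch, had 1.70 ± 0.234 CPM in the isolate and 0.375 to 0.666 CPM as culture means, and its log2 differences were -0.82 ± 0.23, -0.75 ± 0.23 and -0.97 ± 0.23 (limma adjusted p = 0.00800, 0.0123 and 0.00247). Like Rspo4 it passed the filter only through the isolate. Its day 5 call was lost with edgeR (0.0655) and DESeq2 (0.0693) and without the third isolate (0.0592) or second day 5 library (0.0551). Wnt5b fell from 33.2 ± 2.35 to 20.9 ± 8.67 CPM at day 5 (-0.72 ± 0.25, limma adjusted p = 0.0215), a call lost without the first isolate (0.0681), first day 5 (0.0532) or the third day 5 library (0.0944). At day 3 (-0.49 ± 0.25, limma adjusted p = 0.103) and day 7 (-0.59 ± 0.25, 0.0510) it did not pass, but DESeq2 called both (0.0483 and 0.0368). Without the second or the third day 5 library limma called both as well (0.0396 and 0.0398 at day 3, 0.0155 and 0.0158 at day 7), and the day 7 difference also passed without the second day 3 (0.0494) or second day 7 library (0.0449) or with the replicate number as a block (0.0497).

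Wnt6, which lies beside Wnt10a in the genome, rose from 353 ± 11.5 to 565 ± 72.8 CPM at day 3 (0.67 ± 0.19, limma adjusted p = 0.00791). It did not pass at day 5, at 449 ± 142 CPM (0.30 ± 0.19, 0.184), except without the third day 5 library (0.00953), nor at day 7, at 476 ± 75.0 CPM (0.42 ± 0.19, 0.0674). At day 7 Wnt6 passed with TMM rescaling (0.0290), edgeR (0.0374) and DESeq2 (0.0206), and without the second (0.02002) or the third day 5 library (0.0163). Wnt5a, the best known ligand of the beta-catenin-independent branch, had 119 ± 3.23 CPM in the isolate and 132 ± 22.6, 123.3 ± 15.4 and 110.5 ± 33.9 CPM on days 3, 5 and 7, and did not pass (limma adjusted p = 0.534, 0.858 and 0.481) except at day 7 without the second day 7 library (0.0373). Wnt2b, Wnt10a and Wnt9a did not pass either (smallest limma adjusted p against the isolate 0.152, 0.300 and 0.115). Leaving out 1 library changed 2 of these, Wnt10a at day 7 without the third day 7 library (0.0449) and Wnt9a at day 5 without the first day 5 library (0.0205).

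The remaining 8 ligands, Wnt1, Wnt2, Wnt3a, Wnt8a, Wnt8b, Wnt9b, Wnt10b and Wnt16, did not pass the filter in either experiment. Their highest values in any library were 0.641 CPM for Wnt2, 0.424 CPM for Wnt3a and 0.323 CPM for Wnt9b, and 0.229 CPM or less for the other 5. Wnt8b was at 0 in 23 of the 24 libraries, and Wnt8a and Wnt10b in 20.

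Axin2, the feedback gene, had 16.8, 11.5 and 14.6 CPM in the isolate, 13.2, 12.0 and 13.2 CPM at day 3, 14.5, 12.2 and 7.46 CPM at day 5, and 9.92, 11.6 and 10.5 CPM at day 7. Each culture day overlapped the isolate. The differences of -0.14 ± 0.20, -0.33 ± 0.20 and -0.38 ± 0.20 did not pass (limma adjusted p = 0.588, 0.174 and 0.125). Axin2 passed at day 5 without the first day 5 library (-0.52, limma adjusted p = 0.0493) and at day 7 without the third day 5 library (-0.38, 0.0383).

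Between day 3 and day 7 of culture 3 of the 29 members rose (Dkk2, Sfrp1 and Wnt11) and 0 fell, where 3.79% of all genes were called, 1.36% rising and 2.44% falling. In limma 0 members rose without the first day 3 or the third day 7 library, and 1 without the first day 7 library. Of all genes 67, 79 and 133 rose in these runs, and 177 in the main fit.  The median difference was 0.01 for the members and -0.06 for all genes.

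A list of 73 other genes of Wnt signalling, 67 of them in the table and 65 tested, gave 29 rising and 11 falling at day 3, 29 and 13 at day 5, and 36 and 12 at day 7. These are 61.5%, 64.6% and 73.8% of the list called, beside 55.9%, 59.9% and 60% of all genes. At day 7, 8 rose and 0 fell of 9 co-receptors and alternative receptors, and 10 and 3 of 19 genes of the cytoplasmic relay. Planar polarity genes gave 5 and 2 of 9, and nuclear genes 5 and 3 of 14. Of 5 other secreted or membrane regulators, 3 rose (Apcdd1, Cthrc1 and Frzb) and 1 fell (Sostdc1). Genes of secretion and release gave 2 and 1 of 3, widely used targets 2 and 2 of 5, and the 1 receptor turnover gene rose. At day 3 the co-receptors and alternative receptors gave 5 rising and 1 falling. Kremen1, a receptor for Dkk proteins that removes Lrp6 with them, rose from 39.7 ± 3.74 to 221 ± 11.3 CPM at day 3 (2.45 ± 0.12, limma adjusted p = 3.90e-09) and 187 ± 32.0 CPM at day 5 (2.201 ± 0.12, 8.95e-09). Cd44, an adhesion receptor used as a target gene, rose from 10.96 ± 1.72 to 84.8 ± 8.01 CPM at day 3 (2.85 ± 0.14, limma adjusted p = 3.06e-09). The 5 targets tested went both ways, and the rest of those called at day 3 are given here after their values were seen. Ccnd1, a cyclin of the cell cycle, rose by 1.63 ± 0.19, while the growth regulator Myc and the receptor Tnfrsf19 had differences of -1.47 ± 0.13 and -1.03 ± 0.25 (limma adjusted p = 8.80e-06, 9.55e-07 and 0.00298). Notum, an enzyme that inactivates Wnt proteins, had values too low for the naming rule and was also named after its values were seen. It went from 4.08 ± 0.669 to 0.273 ± 0.114 CPM at day 3 (-1.99 ± 0.22, limma adjusted p = 5.93e-06). Frzb, a soluble frizzled-like antagonist related to the Sfrp genes, rose from 2.43 ± 0.492 CPM to 20.7 ± 18.2 CPM at day 5 (2.33 ± 0.53, limma adjusted p = 0.00190) and 36.4 ± 26.4 CPM at day 7 (3.23 ± 0.53, 0.000147).

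Dact2, an inhibitor that binds Dishevelled, rose by 1.81 ± 0.18 at day 3 (limma adjusted p = 2.80e-06) and Apc2, of the complex that degrades beta-catenin, by 2.28 ± 0.23 at day 7 (2.06e-06). Between day 3 and day 7, 4 of the 65 rose and 3 fell, where 3.79% of all genes were called. Without the first or the second day 3 library 0 rose and 0 fell, and without the third day 7 library 0 rose and 2 fell. Without the third day 5 library 6 rose and 7 fell, without the second day 5 library 4 rose and 5 fell, and without the second day 7 library 2 rose and 1 fell. Only 2 rose without any 1 isolate library, the third day 3 or the first day 5 library. With edgeR 4 rose and 1 fell, with DESeq2 7 and 5, and with no filter 1 and 2. Over all genes, 67 rose and 114 fell without the first day 3 library, and 104 and 190 without the second. Without the third day 7 library it was 79 and 131, and without the second 155 and 303. Without the third day 5 library it was 299 and 528, and without the second 210 and 381. Between 134 and 148 rose without any 1 isolate, the third day 3 or the first day 5 library. With edgeR it was 222 and 233, with DESeq2 411 and 391, and with no filter 142 and 260. Named by size, Frzb rose by 2.27 ± 0.53 (limma adjusted p = 0.0301), the glypican Gpc3 rose by 0.83 ± 0.21 (0.0492), and Sostdc1, an antagonist of Wnt and BMP signals, fell by 1.34 ± 0.30 on the log2 scale (0.0264). All of these 3 calls were lost in limma without the first (adjusted p = 0.131 to 0.139) or second day 3 library (0.0624 to 0.125) or the second day 7 library (0.0513 to 0.147). Frzb and Gpc3 were also lost without the third day 7 library (0.141 and 0.218) and Sostdc1 without the first (0.106) and with edgeR (0.0575). Gpc3 was lost as well without any 1 isolate library, the third day 3 or the first day 5 library (0.0715 to 0.0979). A pseudocount of 0.1 also lost Gpc3 (limma adjusted p = 0.0516). With no filter all 3 calls were lost (limma adjusted p = 0.0667 to 0.0974).

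**Figure D4:**
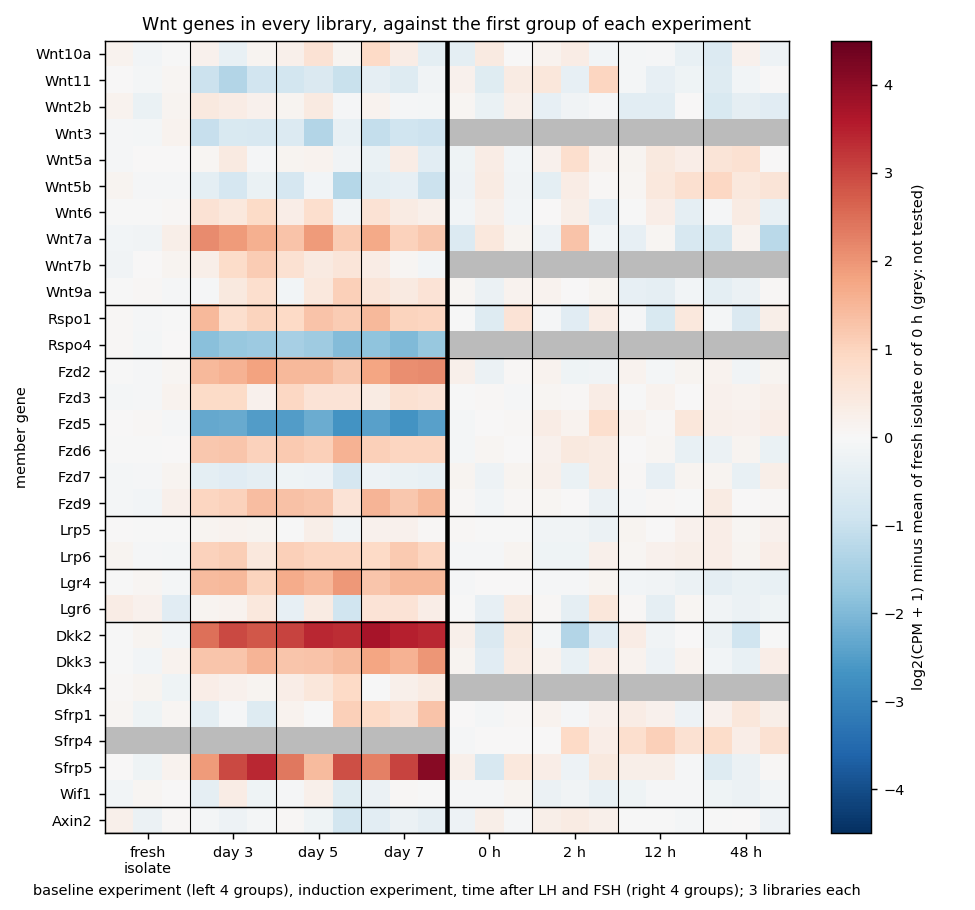
Every tested member (rows, grouped by role) in each of the 24 libraries (columns), as log2(CPM + 1) minus the mean of the fresh isolate in the baseline experiment (left of the thick line) or of 0 h in the induction experiment (right); red is higher, blue lower and grey was not tested in that experiment. Colour is strong in the culture columns, as for Dkk2, Sfrp5 and Fzd5, and pale to the right of the line, where 1 of 26 members passed at 48 h.

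In the induction experiment the comparisons were made within litters, and 1 member passed the test, Lgr4 at 48 h. At 2 h 0 of 26 tested members rose or fell with limma, where 0.618% of all 12450 genes were called (0.329% rose, 0.289% fell), and 6 members and 18.3% of all genes had an unadjusted p under 0.05. At 12 h 0 members and 0% of all genes were called, with 6 members and 8.03% of all genes at an unadjusted p under 0.05. At 12 h edgeR called 0 genes, and DESeq2 called 20 that rose and 1 that fell, with 0 members among them. At 48 h 0 members rose and 1 fell, where 4.35% of all genes were called (2.22% rose, 2.13% fell), and 12 members and 23.7% of all genes had an unadjusted p under 0.05. Between 12 h and 48 h it was 0 members with limma, edgeR and DESeq2, where limma called 0.715% of all genes (0.434% rose, 0.281% fell), and 2 members and 13.3% of all genes had an unadjusted p under 0.05. The comparisons with 0 h share its libraries. The members' median log2 fold change was 0.08, -0.02 and -0.06 at 2, 12 and 48 h, and that of all genes -0.02, -0.04 and -0.03.

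Leydig cell markers summed to 59.0 to 95.3 CPM at 0 h and 108 to 172 CPM at 48 h, with 2 of 5 tested markers rising, while 1 of 10 Sertoli markers rose and 1 of 8 myoid markers fell. Macrophage markers summed to 12.7 to 54.1 CPM at 0 h and 11.8 to 147 CPM at 48 h, with 0 of 7 called. The Leydig marker Insl3 was at 0 in all 4 groups, Emcn and Cd163 at 2, 12 and 48 h, and Upk3b at 0 h. At 12 h mesothelial markers summed to 112, 115 and 26.5 CPM in litters 1, 2 and 3, and Sertoli markers to 3250, 3710 and 2528 CPM. In the same order, myoid markers summed to 4453, 4546 and 4520 CPM and endothelial markers to 69.9, 89.5 and 57.8 CPM. Leydig markers gave 71.6, 134 and 61.4 CPM, germ cell markers 51.9, 43.1 and 62.8 CPM, and macrophage markers 45.6, 16.5 and 71.0 CPM. The part of these markers in the values below was not tested.

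Lgr4, the R-spondin receptor, had 158, 164 and 165 CPM at 0 h in litters 1, 2 and 3, 157, 156 and 178 CPM at 2 h, 149, 145 and 136 CPM at 12 h, and 122.2, 131 and 129.6 CPM at 48 h. At 12 h and at 48 h all 3 libraries lay below those of 0 h, and at 48 h also below those of 12 h. Lgr4 fell by 0.35 ± 0.06 on the log2 scale from 0 h to 48 h (limma adjusted p = 0.0147). Without the litter block the adjusted p was 0.0587, and the call was also lost without litter 2 (0.0686) or 3 (0.0671) at 0 h, or litter 1 (0.0678) or 3 (0.0557) at 48 h. At 12 h the difference was -0.18 ± 0.06 (limma adjusted p = 0.594).

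Dkk2 was lower at 2 h in every litter, with 30.3, 16.1 and 35.0 CPM at 0 h, 24.2, 9.79 and 17.7 CPM at 2 h, 32.6, 22.9 and 26.2 CPM at 12 h, and 21.5, 13.3 and 25.6 CPM at 48 h. Litter 2 had the lowest Dkk2 at each time, and the groups overlapped. The difference at 2 h was -0.64 ± 0.16 (limma adjusted p = 0.0764), and DESeq2 called it (0.0112). At 12 h it was 0.06 ± 0.16 (limma adjusted p = 0.913), and at 48 h -0.39 ± 0.16 (0.180). Fzd5, the receptor that was lower in culture, had 13.1, 14.4 and 14.8 CPM at 0 h, 18.1, 15.7 and 24.2 CPM at 2 h, 15.8, 14.6 and 20.7 CPM at 12 h, and 16.8, 16.2 and 17.7 CPM at 48 h. All 2 h libraries lay above those of 0 h. At 2 h the Fzd5 difference was 0.41 ± 0.11 (limma adjusted p = 0.0873), and again DESeq2 called it (0.0367).

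Wnt5a had 39.5, 57.0 and 41.5 CPM at 0 h, 52.4, 76.8 and 51.3 CPM at 2 h, 49.6, 62.2 and 55.6 CPM at 12 h, and 67.5, 74.0 and 45.7 CPM at 48 h. It was higher than at 0 h in all 3 litters at each later time, although the groups overlapped. The difference was 0.37 ± 0.12 at 2 h (limma adjusted p = 0.132, DESeq2 0.0471) and 0.42 ± 0.12 at 48 h (0.0685, DESeq2 0.00655). At 48 h Wnt5a passed in limma without litter 3 at 12 h (0.0399) or at 48 h (0.0294). Wnt5b had 19.7, 30.3 and 20.4 CPM at 0 h, 16.7, 29.2 and 23.7 CPM at 2 h, 24.7, 32.3 and 38.4 CPM at 12 h, and 45.3, 32.3 and 34.7 CPM at 48 h. Every 48 h library lay above those of 0 h, by 0.66 ± 0.21 (limma adjusted p = 0.0887), a difference called by DESeq2 (0.00942) and by limma without litter 2 at 48 h (0.0460).

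**Figure D5:**
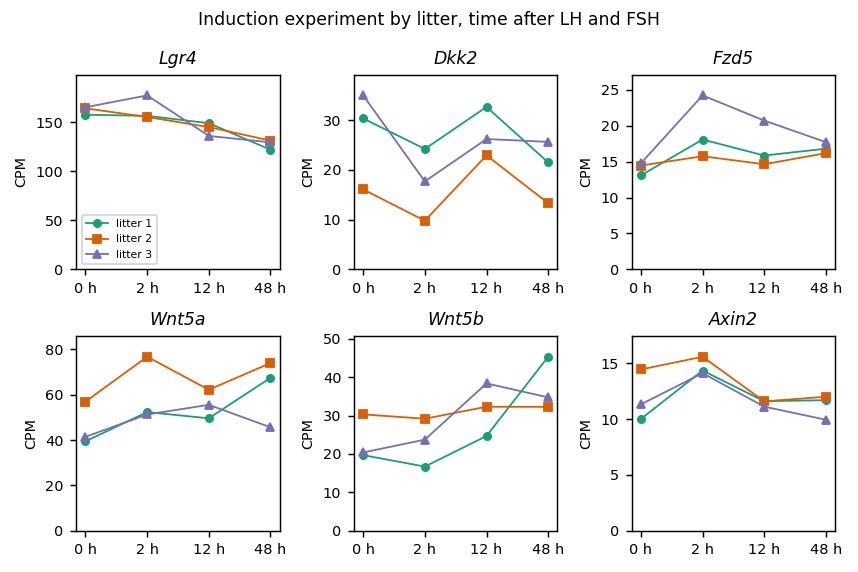
CPM (vertical axes, from 0) of Lgr4, Dkk2, Fzd5, Wnt5a, Wnt5b and Axin2 at 0, 2, 12 and 48 h after LH and FSH (horizontal axis, evenly spaced times), with 1 line per litter and 1 library per point. Lgr4 ends at 122.2 to 131 CPM in all 3 litters, from 158 to 165 CPM, and litter 2 runs lowest for Dkk2 and highest for Wnt5a at all times.

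The co-receptors were higher at 48 h in all 3 litters without passing in limma. Lrp6 had 104, 104 and 116 CPM at 0 h, 94.9, 95.3 and 126 CPM at 2 h, 113, 124 and 129.9 CPM at 12 h, and 132, 118 and 133 CPM at 48 h, a 48 h difference of 0.24 ± 0.07 (limma adjusted p = 0.0850, DESeq2 0.0437). It passed in limma without litter 3 at 2 h (0.0434). Lrp5 went from 157 ± 4.40 to 180.0 ± 14.2 CPM at 48 h (0.19 ± 0.06, limma adjusted p = 0.0964, DESeq2 0.0310). For both, the 48 h and 0 h libraries did not overlap, which was not counted over all genes.

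Axin2 had 10.0, 14.4 and 11.3 CPM at 0 h, 14.3, 15.6 and 14.1 CPM at 2 h, 11.6, 11.6 and 11.1 CPM at 12 h, and 11.7, 12.0 and 9.94 CPM at 48 h. It was higher at 2 h than at 0 h in all 3 litters, while the groups overlapped through litter 2 at 0 h. The differences were 0.29 ± 0.11 at 2 h (limma adjusted p = 0.177), -0.04 ± 0.11 at 12 h (0.911) and -0.07 ± 0.11 at 48 h (0.722), and none passed in any of the 20 alternatives.

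The other members that had changed in culture gave no call after the hormones. Fzd6 had 39.8, 45.0 and 43.7 CPM at 0 h, 48.7, 58.9 and 55.4 CPM at 2 h, 43.8, 45.7 and 33.6 CPM at 12 h, and 35.8, 46.5 and 34.2 CPM at 48 h. Its 2 h libraries lay above those of 0 h, by 0.33 ± 0.10 (limma adjusted p = 0.119). Sfrp1 had 49.9, 45.4 and 51.2 CPM at 0 h, 54.9, 47.0 and 55.3 CPM at 2 h, 61.4, 56.03 and 41.9 CPM at 12 h, and 56.5, 69.3 and 59.0 CPM at 48 h, with the 48 h libraries above those of 0 h (0.33 ± 0.13, limma adjusted p = 0.160). Wnt11 had 41.1, 23.7 and 45.6 CPM at 0 h, 51.1, 27.2 and 71.0 CPM at 2 h, 33.3, 27.0 and 31.3 CPM at 12 h, and 23.2, 32.5 and 36.3 CPM at 48 h. It was higher in all 3 litters at 2 h (0.37 ± 0.23, limma adjusted p = 0.421), with groups that overlapped.

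Sfrp5 had 14.1, 6.87 and 17.2 CPM at 0 h, 14.9, 10.1 and 16.6 CPM at 2 h, 14.5, 14.4 and 11.5 CPM at 12 h, and 7.70, 9.81 and 12.4 CPM at 48 h, and its litters moved in different directions (smallest limma adjusted p = 0.505). Fzd9 had 20.2, 17.98 and 20.4 CPM at 0 h, 20.9, 19.6 and 16.1 CPM at 2 h, 18.9, 20.3 and 19.1 CPM at 12 h, and 25.5, 19.8 and 20.4 CPM at 48 h (smallest limma adjusted p = 0.414). Dkk3 had 212, 137 and 251 CPM and Fzd2 had 151, 109 and 134 CPM at 0 h, and their smallest limma adjusted p-values were 0.750 and 0.658. Among members with lower values, Wnt2b went from 2.08 ± 0.525 to 1.11 ± 0.199 CPM at 48 h (-0.53 ± 0.16, limma adjusted p = 0.0866). Sfrp4 went from 0.140 ± 0.0386 CPM at 0 h to 0.758 ± 0.313 CPM at 48 h (0.61 ± 0.23, limma adjusted p = 0.142, DESeq2 0.0230), and reached 1 CPM only after 0 h. The remaining 9 tested members, Fzd3, Fzd7, Lgr6, Rspo1, Wif1, Wnt6, Wnt7a, Wnt9a and Wnt10a, passed in none of the 4 comparisons, with smallest limma adjusted p-values from 0.161 for Wnt7a to 0.884 for Wnt6.

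For some members the same litter was the lowest or the highest at every time. Litter 2 was the lowest of the 3 at all 4 times for 6 of the 26 tested members, Dkk2, Dkk3, Fzd2, Fzd7, Lgr6 and Rspo1, and for 5.98% of all genes. It was the highest at all 4 times for 5 members, Fzd6, Wnt5a, Wnt6, Wnt7a and Wnt10a, and for 17.9% of all genes. Litter 3 was the highest throughout for Fzd5, Fzd7, Lrp6 and Rspo1 (2.94% of all genes), and litter 1 for Fzd2 (1.72%). Rspo1 ranged from 2.09 to 2.44 CPM in litter 2 and from 4.85 to 6.47 CPM in litter 3, and Wnt6 from 424 to 468 CPM in litter 2 and from 274 to 336 CPM in litter 3.

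Of the 63 other pathway genes tested in the induction experiment, 1 rose and 2 fell at 48 h, beside 4.35% of all genes called, and 0 were called at 2 h, at 12 h or between 12 h and 48 h. DESeq2 called 2 rising and 4 falling at 2 h, 2 and 5 at 48 h, and 1 falling between 12 h and 48 h. Without litter 3 at 12 h limma called 1 rising and 2 falling at 2 h and 1 falling between 12 h and 48 h, and without litter 1 at 48 h it called 1 rising and 1 falling at 2 h. At 48 h it called 0 rising and 0 falling without litter 1 at 48 h, 0 rising and 1 falling without litter 3 at 0 h, and 0 falling without litter 2 at 0 h. At 48 h it also called 1 falling without litter 2 at 48 h, and 2 rising without litter 1 at 2 h. Over all genes DESeq2 called 262 rising and 250 falling at 2 h, and 614 and 323 at 48 h. Between 12 h and 48 h it called 111 falling. Without litter 3 at 12 h limma called 118 and 103 of all genes at 2 h, and 39 falling between 12 h and 48 h. Without litter 1 at 48 h it called 68 and 68 at 2 h, and 95 and 58 at 48 h. At 48 h 45 fell without litter 2 at 0 h and 146 without litter 2 at 48 h. Without litter 3 at 0 h 88 rose and 48 fell. Without litter 1 at 2 h 187 rose. Apcdd1, a membrane protein that inhibits Wnt signals, had 113, 153 and 77.0 CPM at 0 h and 241, 231 and 144 CPM at 48 h in litters 1, 2 and 3 (0.86 ± 0.16, limma adjusted p = 0.0159). Nkd2, which binds Dishevelled, had 12.1, 10.0 and 11.9 CPM and then 7.15, 5.41 and 8.82 CPM (-0.62 ± 0.11, limma adjusted p = 0.0127), and the secreted protein Cthrc1 had 11.8, 4.66 and 19.8 CPM and then 5.45, 1.78 and 7.69 CPM (-1.09 ± 0.23, 0.0273). Each moved the same way in all 3 litters, which was not counted over all genes. They were named because the test within litters called them, so this adds no support. Without the litter block none was called (limma adjusted p = 0.214 for Apcdd1, 0.127 for Nkd2 and 0.473 for Cthrc1). Apcdd1 was also lost without litter 3 at 0 h (0.0859) or litter 1 at 48 h (0.0562), Nkd2 without litter 2 at 0 h (0.0632) or litter 1 at 48 h (0.0562), and Cthrc1 without any 1 library of 0 h or 48 h (0.0529 to 0.132). With no filter Cthrc1 was lost as well (limma adjusted p = 0.0625).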

How the data were processed

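RNA-seq was done on 24 libraries in 8 groups of 3, and the authors deposited 1 table of CPM values per gene (read counts scaled to a fixed library total) for both experiments, in which the listed genes leave 2.93 to 4.71% of each library's total unlisted. Reads were aligned with STAR to mRatBN7.2, per the submitters' processing notes, and the counting tool and annotation are not given in the sources used here. The libraries do not keep strand, per the labels' protocols. Every CPM value was a whole multiple of 1 read (100% of values, tolerance 0.01 reads), so reads were recovered for edgeR 4.0.16 and DESeq2 1.42.0 as alternatives. Depth was 17.3 to 30.4 M reads in the baseline and 15.8 to 28.3 M reads in the induction libraries. The main test was limma 3.58.1 (R 4.3.3, trended variance) on log2(CPM + 1) for genes with at least 1 CPM in at least 3 libraries, fitted per experiment over all 12 libraries, with Benjamini-Hochberg adjustment over 13055 or 12450 genes and calls at 0.05. The induction fit held the litter as a block, since the labels give the litter of each library, and same-litter deviations had a median correlation of 0.482 over 18 pairs. Only the limma procedure was tested on simulated counts, for day 3 against the isolate and for 2 h against 0 h.

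All members are accounted for. Values per library are given for members with a group mean of at least 5 CPM and a call of at least 2-fold, for Axin2, and for further members that a statement turns on. Other pathway genes were named by the largest change in either direction, up to 3 per comparison, among called genes with at least 5 CPM in the higher group, and a few others are marked as named after their values were seen. The members, lists and rules were chosen with earlier results of these data known. Alternatives were other pseudocounts, filters, scalings and tools, the block added or dropped, and each library left out.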

Additional observations from a re-analysis of the deposited data

How the results depend on the processing

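Of 57 calls of members, 44 were kept in every alternative run that still tested the gene, and 13 were lost in at least 1. Some of the 44 were not tested in all 20 alternatives. In the baseline Rspo4 was tested in 16, as it fell below the filter once any 1 isolate library was left out or at 5 CPM. Rspo1, Wnt7a and Wnt3 were tested in 19. Of 163 results that were not called, 20 passed in at least 1, and 0 results reversed. With no filter 10 members fell at day 3, 10 at day 5 and 8 at day 7, since other genes were tested. Of all 17945 genes then tested, 4112, 4602 and 4744 fell on those days. With a filter at 5 CPM 3 members fell at day 3 and 2 at day 7, beside 2901 and 3459 of 11096 genes. DESeq2 called 5 members rising from day 3 to day 7 (Fzd2 passed only there, at 0.0143), 2 rising and 1 falling at 2 h, and 5 rising at 48 h. Over all genes it called 411 of 13055 rising from day 3 to day 7. At 2 h it called 262 rising and 250 falling of 12450, and at 48 h 614 rising. The main fit called 177, 41 and 36, and 276. The cause was not tested. Without the litter block 0 members fell at 48 h, beside 6 of all genes, where 265 fell with it. Baseline libraries sharing a replicate number gave correlations from -0.349 to 0.344 over 18 pairs (median -0.000715), 5 of them above 0.1. The median of the other pairs was -0.0163. Pairing by the numbers in the library names, which differ in part from the replicate numbers, was not tested. With the replicate number as a block 13 members rose and 5 fell at day 3, and 12 and 6 at day 5. With that block it was 12 and 5 at day 7, and 4 rose from day 3 to day 7. Leaving out 1 library at a time gave 12 to 13 members rising and 3 to 6 falling at day 3, 11 to 13 and 3 to 6 at day 5, 11 to 13 and 2 to 7 at day 7, 0 to 4 rising from day 3 to day 7, and 0 to 1 rising and 0 to 1 falling at 48 h. Over all genes the same runs gave 3262 to 4117 rising and 2673 to 3814 falling at day 3. They gave 3339 to 3934 and 3120 to 4048 at day 5, and 3275 to 3987 and 3263 to 4462 at day 7. Between day 3 and day 7, 67 to 299 of all genes rose. At 48 h 85 to 357 rose and 45 to 368 fell. At the depth of these libraries 1 read is 0.0329 to 0.0633 CPM. Values under about 3 reads therefore limit Rspo4, Sfrp4, Wnt3, Sfrp5 in the second isolate library, and the untested members.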
